A study of Oryza sativa with 3 samples.

Results

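Array probes for miR395 and miR399 of rice, the microRNA families that follow sulfate and phosphate supply, were measured in roots exposed to vanadium or to water. The members are all probes whose names begin with osa-miR395 or osa-miR399 followed by a letter, 102 of 42418 probes on the array once control probes were left out. Membership was set by probe names, with no measured value in the rule. There were 69 miR395 probes for 23 family members (a to w) and 33 miR399 probes for 11 members (a to k). Each family member had 3 probes, which the array's own names call Mature, 5'seq and 3'seq. The files do not say which stretch of the gene 5'seq and 3'seq cover. Each probe was printed as 2 spots, which were averaged.

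Roots of 6-day-old seedlings of Oryza sativa, cultivar TN-67, were exposed to 1 mM vanadium, and the controls, of the same age and cultivar, were exposed to water. Each of 3 two-colour arrays carried both RNAs of 1 biological replicate, vanadium in Cy5 (red) and water in Cy3 (green). The dyes were never swapped, so a dye effect of a single probe and the treatment cannot be told apart. The labels give no exposure time. The root tissue is whole, so fewer cells of a type and less RNA per cell cannot be told apart.

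MicroRNAs of plants are cut from longer hairpin transcripts, and the mature strand guides the cleavage of matching messenger RNAs. miR395 is known to accumulate in plants short of sulfate and to target ATP sulfurylase, the first enzyme of sulfate assimilation, and a sulfate transporter. Rice miR395 genes lie in clusters, and many of them encode the same mature sequence. miR399 is known to accumulate under phosphate starvation and to target PHO2, an enzyme of ubiquitin conjugation that lowers phosphate uptake and its transfer to the shoot. Per the labels' protocols, total RNA was isolated and cleaned on RNeasy columns and amplified linearly. The standard column procedure is known to recover RNA as short as a mature microRNA poorly. The files do not show whether signal at a Mature probe came from the mature strand, its precursor or another RNA.

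The 5'seq and 3'seq probes of miR399d read higher under vanadium, with water signals well above background on no array. The 3'seq probe missed the filter described next, and a dye effect at either probe cannot be told apart from the treatment. Most probes of both families gave no signal above background. A probe was tested if the scanner software marked it well above background in the vanadium channel on all 3 arrays or in the water channel on all 3. Of the 102 members 24 were tested: 20 of 23 miR395 Mature probes, 1 of 11 miR399 Mature probes, 2 of 11 miR399 5'seq probes and 1 of 11 miR399 3'seq probes. None of the 23 miR395 5'seq and none of the 23 miR395 3'seq probes was tested. A further 6 members were above background on some arrays only, and 72 were above background on no array in either channel. On the same arrays 29711 of 41908 locus probes (70.9%) were tested, and 118 of 408 probes for other rice microRNAs (28.9%).

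Of the 24 tested members 4 were higher under vanadium and 0 were lower (limma, Benjamini-Hochberg adjusted p under 0.05 over all tested probes, n = 3 arrays). The 4 were miR399d 5'seq, miR399c 5'seq, miR395a Mature and miR395c Mature. The filter admits a probe that is bright in 1 channel and dim in the other, in either direction. Entry by the vanadium channel alone favours a higher call, and entry by the water channel alone a lower one. All 24 tested members were above background in the vanadium channel on all 3 arrays, and 21 of them also in the water channel. No member therefore entered by the water channel alone, the route that favours a lower call. Of the 4, miR399d 5'seq and miR395c Mature passed the filter through the vanadium channel only. When both channels had to be above background on all 3 arrays, 2 calls were left among 21 members, against 7249 higher calls among 27143 probes. The 4 make up 16.7% of the tested members, against 29.1% of all 29853 tested probes called higher. Lower calls made up 21.4% of all tested probes. By the fitted mean, 1 member was called at a fold of 2 or more, miR399d 5'seq, where 8.47% of all tested probes were called at least 2-fold higher and 1.58% at least 2-fold lower. At an unadjusted p under 0.05, 5 members were higher and 0 lower. The share of all tested probes at that threshold was not counted, so no direction of the families is read from it. Higher calls made up 57.5% of all calls on the array, and 57.6% without the filter. The share was 54.0% with both channels above background on all 3 arrays. It was 40.8% when the log ratio computed by the scanner software was used. Over 13 other ways of processing, 1 to 8 members were called higher and 0 to 1 lower. The counts over all tested probes are given further below for most of these.

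The largest difference among the tested members was at miR399d, annotated by the array to chromosome 6. Under vanadium the 5'seq probe read 148, 227.5 and 140.0 (median spot signal, replicates 1, 2 and 3), against 97.8, 171.5 and 176.5 in water. Signals in different channels are not on one scale before normalization. The negative controls of the same arrays read 62, 67 and 68 under vanadium, and 89, 160 and 154.5 in water (medians over 153 spots). The probe therefore stood 106 units above the negative controls in the vanadium channel on average, and 14.1 units above them in the water channel. It was well above background in the vanadium channel on all 3 arrays and in the water channel on none.

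The normalized log2 ratios of vanadium over water of miR399d 5'seq were 1.33, 1.32 and 0.55. All 3 arrays were positive, with replicate 3 the lowest. The probe was admitted to the test by its vanadium signal alone, a route that favours a higher call. The mean was 1.06 ± 0.16 (SE, n = 3 arrays; adjusted p = 0.00247, limma). The 95% interval of that mean reached from 0.67 to 1.46. Because no array had its water signal well above background, the fold is given against a floor. The normalized vanadium mean was 1.79-fold higher than this floor. The floor is the lowest water signal that counted as well above background, or the probe's own where that is higher. The 1.79-fold takes no account of sampling error, so it is not a lower limit of the true fold, and it is open to dye bias. The size depended on how background was treated. The log2 ratio was 1.89 with an offset of 0 in place of 50, and 3.53 with the scanner's log ratio, where the 3 arrays read 4.62, 3.66 and 2.32. Replicate 1 lay on another slide than replicates 2 and 3, and over that pair alone the mean was 0.93. The direction and the call held in all 12 alternatives that tested this probe. Those that changed only the filter or the test left the mean at 1.06 by design. The scanner's log ratio and the authors' deposited table gave the same value, 3.53. Requiring both channels above background left the probe untested, so no alternative tested it with a water signal well above background.

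The 3'seq probe of miR399d had signals of 152, 216.5 and 111 in the vanadium channel, against 90.8, 159.8 and 155.5 in the water channel. It missed the filter because 1 array, replicate 3, was not well above background under vanadium. Its log2 ratios were 1.48, 1.38 and 0.60, in the same order over the arrays as those of the 5'seq probe. In a fit of all probes without the filter its mean was 1.16 ± 0.17 (SE, n = 3 arrays; adjusted p = 0.00231, limma). In that fit 21.8% of all probes were called higher. The water signal of the 3'seq probe stood 0.83 units above the negative controls on average, so its ratio depended on how background was treated. With the scanner's log ratio its 3 arrays read 4.55, 3.41 and 1.41. The gap between duplicate spots of either probe reached at most 0.11 on any array. These probes share the RNA samples and the gene, so they are no independent replicates of each other.

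The Mature probe of miR399d was at background in both channels. Its signals were 80.5, 95.8 and 91.0 under vanadium, against 112.5, 174.3 and 176.5 in water. The log2 ratios of 0.06, 0.26 and 0.11 gave a mean of 0.14 ± 0.08 that did not pass without the filter (SE, n = 3 arrays; adjusted p = 0.217, limma). With the Mature probe near background, a change in what it measures was not detectable.

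The miR399c gene, on chromosome 5 by the array's names, gave signal at its 5'seq probe. Signals were 365, 552.5 and 440.8 under vanadium, against 495, 521 and 483 in water, well above background in both channels on all 3 arrays. Its log2 ratios were close together, at 0.28, 0.31 and 0.25, and the mean of 0.28 ± 0.08 passed the test (SE, n = 3 arrays; adjusted p = 0.0219, limma). The call was lost with median centring (0.17, adjusted p = 0.424, limma), with the scanner's log ratio (0.16, 0.168), when the channels were not paired by array (0.373), and without replicate 2 (0.0689) or replicate 3 (0.119). The Mature and 3'seq probes of miR399c were above background on no array, with log2 ratios of -0.08 and 0.12.

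At miR399i, on chromosome 2, the Mature probe was the one member of its class above background. Its signals were uneven between arrays: 717.3, 260.8 and 457.8 under vanadium, against 1083.3, 390.8 and 1167.5 in water. The log2 ratios were 0.15, -0.22 and -1.06, so the arrays did not share a direction. The gap between duplicate spots was 0.04, 0.01 and 0.01, smaller than the one between arrays. The mean of -0.38 ± 0.21 did not pass the test (SE, n = 3 arrays; adjusted p = 0.187, limma), with a 95% interval from -0.89 to 0.14. Replicate 3 decided the value: without it the mean was -0.03. Without replicate 1 the probe was called lower, at -0.64 (adjusted p = 0.0196, limma), and that leaves replicates 2 and 3, the pair that shared a slide. It was also called lower with median centring, at -0.55 (adjusted p = 0.0461, limma). The 5'seq and 3'seq probes of miR399i were above background on no array.

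The remaining tested miR399 probe was miR399b 3'seq, also on chromosome 2. It read 244.8, 139.3 and 160.8 under vanadium, against 335.8, 209.5 and 321 in water. The vanadium channel alone admitted it, since its water signal was not well above background on replicate 2. The log2 ratios were 0.25, 0.21 and -0.36, with a mean of 0.03 ± 0.13 (SE, n = 3 arrays; adjusted p = 0.852, limma) and a 95% interval from -0.29 to 0.35. Replicate 3 was again the lowest array. Besides miR399d 3'seq, miR399h 3'seq and miR399k 5'seq were above background on some arrays. miR399h 3'seq, above background under vanadium on replicates 1 and 3 and in water on replicate 1, had log2 ratios of 0.16, 0.18 and 0.22. miR399k 5'seq, above background in water on replicate 1, had -0.24, -0.08 and -0.06.

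The Mature probes were where miR395 gave signal, and the differences between vanadium and water there were small. Over the 20 tested probes the signals in the vanadium channel had medians of 423, 596 and 621 on replicates 1, 2 and 3, against medians of 617, 594 and 756 in the water channel. The log2 ratios had medians of 0.19, 0.17 and 0.06, and single probes lay between -0.06 and 0.60 on replicate 1, -0.05 and 0.40 on replicate 2, and -0.12 and 0.36 on replicate 3. If several of these probes read the same mature sequence, they are repeated measurements of 1 RNA pool and not separate members. The probe sequences were not used here.

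All 20 had a positive mean log2 ratio, with a median of 0.14. Of the 20, 12 were positive on every array, where 39.1% of all tested probes were. This direction depended on the scaling. With the scanner's log ratio 9 were positive and 11 negative, with a median of -0.02, and with median centring 12 were positive and 8 negative. These scalings moved the median over all tested probes by -0.14 and -0.079, though not every probe by the same amount. Relative to that move, the miR395 Mature median was 0.12 and 0.11. Negative control spots had medians of similar size after the main steps, 0.09, 0.12 and 0.08 on replicates 1, 2 and 3. Over all tested probes the median log2 ratio was 0.02.

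Of the 20, miR395a and miR395c on chromosome 4 passed the test. miR395a Mature had signals of 419.8, 464.5 and 448.5 under vanadium, against 467.5, 472.8 and 459.5 in water. Its log2 ratios of 0.59, 0.24 and 0.36 gave a mean of 0.40 ± 0.09 (SE, n = 3 arrays; adjusted p = 0.0139, limma). It passed without any 1 replicate, and did not pass with median centring (0.28, adjusted p = 0.17, limma), with the scanner's log ratio (0.30, 0.06) or with unpaired channels (0.293).

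miR395c Mature was dimmer, with 126.5, 143.5 and 132 under vanadium, against 160.0, 211.5 and 198 in water. It was well above background on all 3 arrays in the vanadium channel and on 1 in the water channel. Its log2 ratios were 0.28, 0.23 and 0.28, with a mean of 0.26 ± 0.08 (SE, n = 3 arrays; adjusted p = 0.027, limma). It did not pass when replicate 1 (adjusted p = 0.0662, limma), replicate 2 (0.0599) or replicate 3 (0.171) was left out, with median centring (0.212) and with unpaired channels (0.345). With the scanner's log ratio its mean was 0.70 (adjusted p = 0.0325, limma), with 0.33, 0.55 and 1.21 on the 3 arrays.

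The other 18 tested miR395 Mature probes had means between 0.04, at miR395g, and 0.29, at miR395w, with adjusted p between 0.0792 and 0.667 (limma). Their 95% intervals reached from -0.16 to 0.56 at the widest, so differences larger than that in either direction were outside the interval of every one of them. miR395w Mature, on chromosome 9, read 471.3, 413 and 435.3 under vanadium, against 519, 453.5 and 510.8 in water. On the 3 arrays the log2 ratio was 0.60, 0.15 and 0.11, with replicate 1 high. With slide as a block miR395w Mature passed (adjusted p = 0.0166, limma). Replicate 1 was alone on its slide, so the probe's own spread in that fit came from replicates 2 and 3 only. Without replicate 1 its mean was 0.13 and it did not pass (adjusted p = 0.311, limma). The brightest probe, miR395f Mature on chromosome 4, read 666.3, 790.0 and 835.5 under vanadium, against 806.5, 843 and 960.0 in water. The log2 ratios were 0.47, 0.01 and 0.08, with a mean of 0.19 ± 0.11 (SE, n = 3 arrays; adjusted p = 0.199, limma). Replicate 1 was again the highest.

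The other means on chromosome 4 were 0.18 for miR395b, 0.18 for miR395d, 0.13 for miR395e, 0.08 for miR395m and 0.15 for miR395n. Further on the same chromosome, they were 0.09 for miR395p, 0.19 for miR395q, 0.09 for miR395r and 0.09 for miR395s. The 5 probes on chromosome 8 had 0.10 for miR395h, 0.17 for miR395i, 0.05 for miR395j, 0.08 for miR395k and 0.19 for miR395l. On chromosome 9 miR395u had 0.12. The median log2 ratio over all Mature probes, tested or not, was 0.14 for the 14 probes on chromosome 4, 0.10 for the 5 on chromosome 8 and 0.13 for the 4 on chromosome 9. The difference between chromosomes was not tested.

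The Mature probes that were not tested were miR395t, above background in both channels on replicate 1 only, and miR395o and miR395v, above background on none. miR395o read 74, 82.3 and 81 under vanadium, against 97.5, 174 and 166.3 in water. miR395v read 70.0, 72.5 and 71 under vanadium, against 92.8, 177 and 159 in water. Both gave signals near those of the negative controls.

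The 5'seq and 3'seq probes of miR395 were mostly at background. Over the 23 5'seq probes the median vanadium signals were 62.5, 70.8 and 73, against 92, 167.3 and 162 in water. Over the 23 3'seq probes they were 67.8, 71.8 and 74.5 under vanadium, against 95.5, 174 and 166.3 in water. All of these medians were below the 95th percentile of the negative controls, which was 68.4, 88 and 95.1 under vanadium and 99, 182.9 and 177.1 in water. The 2 exceptions were miR395j 3'seq, above background under vanadium on replicate 2, and miR395t 3'seq, above background in both channels on replicate 1.

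The 72 members above background nowhere had mean log2 ratios between -0.17, at miR395u 3'seq, and 0.31, at miR395m 3'seq, with a median of 0.05. Negative control spots had median log2 ratios of 0.09, 0.12 and 0.08 after the same steps on replicates 1, 2 and 3. Their 5th and 95th percentiles were -0.13 and 0.32, -0.10 and 0.34, and -0.09 and 0.32. In a fit without the filter, 3 of the 72 were called higher: miR395m 3'seq at 0.31 (adjusted p = 0.0224, limma), miR395g 3'seq at 0.29 (0.0475) and miR395p 5'seq at 0.27 (0.0414). Having been above background on no array, these probes give no measured change of an RNA. In that fit 21.8% of all probes were called higher and 16.1% lower. The lowest ratios of the other dim classes were -0.08 at miR395j 5'seq and -0.11 at miR399g 3'seq, and the highest miR399 Mature ratio was 0.14 at miR399h.

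Set beside the probes of other rice microRNAs, miR395 differed in which field gave signal. With 4 miR399 probes tested, a field pattern of that family cannot be told. Of the Mature probes 20 of 23 were tested for miR395 and 1 of 11 for miR399, against 18 of 136 for other microRNAs. Of the 5'seq probes 0 of 23 were tested for miR395 and 2 of 11 for miR399, against 51 of 136. Of the 3'seq probes it was 0 of 23 and 1 of 11, against 49 of 136. These are counts of probes that can share sequence, so no test is given. Of the 24 tested members 16.7% were called higher and 0 lower, against 26.3% higher and 28.8% lower of the 118 tested probes of other microRNAs. The median size of the log2 ratio, sign aside, was 0.16 for the tested members, 0.27 for the other microRNAs and 0.27 for all tested probes.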

How the data were processed

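Each of the deposited array files gives, per spot, the intensity of spot and surroundings for both dyes, read by Agilent Feature Extraction 10.7.1.1 per the file headers and not normalized. Also deposited are the software's processed intensity and, as a log10 ratio, red divided by green. In the authors' deposited table the log2 ratios matched the processed red intensity divided by the green one for 100% of 41882 probes with 1 spot (tolerance 0.001), with column medians of -0.05, -0.19 and -0.21, so it was not centred.

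From the median signals, background was corrected by normexp (offset 50) and loess was run within each array, giving control spots a weight of 0 (limma 3.58.1, R 4.3.3). Spots marked as outliers were left out (306 to 1090 of 45151 per array, 0 of them of members), spots of a probe were averaged, and the mean log2 ratio was tested against 0 with lmFit and eBayes, two-sided. A probe counted as well above background if each of its spots did. SE are those of the moderated test. Of all probes, 31316 to 31497 per array were above background in the vanadium channel and 29279 to 31183 in the water channel. The number of arrays, 3, limits the precision. The deposited 0 or 1 flags are other values of the scanner software, per the file headers. The pairing comes from the shared array. The steps were also run on simulated data that held no dye effect, so that run does not bear on dye bias.

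Named probes are all tested members and, per family and field, those with the highest and lowest ratio and the highest signal. The rule for members uses probe names only, but the 2 families and the lists were picked for description with earlier results of these data known. Genes of the sulfate and phosphate pathways and tissue markers were not analysed here, since the locus numbers are not paired with names in the sources used.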

Additional observations from a re-analysis of the deposited data

How the results depend on the processing

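The 4 members called higher, of 24 tested, became 8 of 102 without the filter on dim probes. In that fit 9264 of 42405 probes were called higher (21.8%). They became 2 of 21 when both channels had to be above background, against 7249 of 27143 probes. With the scanner's log ratio they became 2 of 24, against 6729 of 29853 probes. It was also 2 of 24 with the authors' deposited table, against 6731 of 29850. They became 1 of 24 with median centring, against 5468 of 29853 probes. With no replicate block, that is with channels unpaired by array, they became 1 of 24, against 4636 of 29853. With replicate 1 left out they became 3 of 24, against 8214 of 30861 probes. With replicate 2 left out it was 2 of 25, against 7571 of 30299. With replicate 3 left out it was 3 of 25, against 6942 of 30620. With slide as a block it was 5 of 24, against 9403 of 29853. The count called lower, 0 of 24, became 1 with median centring, against 4555 of 29853 probes. It became 1 of 24 without replicate 1, against 5410 of 30861, and stayed 0 without replicate 2 or replicate 3. The probe was miR399i Mature each time. miR399d 5'seq was called higher under every alternative that tested it, from 0.93 to 3.53. It was not tested where both channels had to be above background.

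Sign changes occurred at probes that were not called. With the scanner's log ratio, and with the same values to 3 decimals in the authors' deposited table, 12 means turned negative: miR395b -0.015, miR395e -0.026, miR395g -0.133, miR395h -0.034, miR395j -0.095, miR395k -0.110, miR395m -0.049, miR395n -0.021, miR395p -0.096, miR395r -0.107 and miR395s -0.055 (all Mature) and miR399b 3'seq -0.096. With median centring 9 did: miR395g -0.089, miR395h -0.025, miR395j -0.084, miR395k -0.049, miR395m -0.049, miR395p -0.038, miR395r -0.035, miR395s -0.034 and miR399b 3'seq -0.084. These scalings moved the median over all tested probes by -0.14 and -0.079. Leaving out replicates gave -0.022 to 0.11 for miR395j Mature and -0.077 to 0.23 for miR399b 3'seq. Ratios of dim probes depend on the offset, which pulls them toward 0, and with 3 arrays the cause of replicate 3's lower miR399d and miR399i ratios was not tested.

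On the whole array 8673 probes were higher and 6399 lower, against 6729 and 9753 with the scanner's log ratio, and 4636 and 2134 with no replicate block.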

Other observations

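On replicate 3, single spots of 3 dim members stood out from their duplicates in both channels. At miR395u 3'seq one spot read 467 under vanadium and 618 in water, and its duplicate read 68 and 169. At miR395s 5'seq the spots read 222 and 74 under vanadium, against 322 and 174 in water. At miR399f 3'seq they read 214 and 72 under vanadium, against 325.5 and 174 in water. The software did not mark these spots as outliers, and on the other arrays the 3 probes stayed near the negative controls. The averaged log2 ratios of the 3 probes on replicate 3 were -0.18, -0.06 and -0.13.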
